A study of Mus musculus with 4 samples.

Results

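Periodontal ligament (PDL) from 4-week-old mice knocked out for Mkx (Mkx-KO) was compared with PDL from 4-week-old wild type mice (WT), with 1 array for each genotype. These are 2 of the 4 samples in the study, and the other 2 hold the same genotypes at 10 weeks. Both samples were chosen by the age and genotype in their labels, and total RNA of the whole tissue was measured in each. The labels do not give the number or sex of the mice, the strain, or how the knockout was made. A group of 1 array has no biological replicate, so no p-value is given, and every difference describes these 2 preparations only. A level is the log2 processed signal minus the 75th percentile of the signals on the same array, and a difference is the Mkx-KO level minus the WT level. A gene counted as measured where the scanner software flagged its probe as well above background on each 4-week array, which held for 15682 of 22907 named genes. The software's own error estimate gave each difference a technical error with a median of 0.20, which does not cover variation between mice.

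The PDL is the fibrous tissue that holds a tooth root in its bony socket. Its fibroblasts secrete type I and type III collagen, which is assembled into bundles that insert into cementum on the tooth side and into alveolar bone on the other. Small leucine-rich proteoglycans and matricellular proteins shape these fibrils, lysyl oxidases cross-link them, and a fibrillin-rich oxytalan network runs between them. Mkx encodes Mohawk, a homeobox transcription factor of tendon and ligament that is known for promoting collagen and proteoglycan genes in tendon cells. In mice, roots of molars are still being completed at the younger age studied here, so dental epithelium, bone and marrow lie close to the tissue when it is dissected.

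Quality values of both arrays were close. The share of non-control spots well above background was 62.3% in WT and 61.8% in Mkx-KO, and no spot was saturated. Levels of the measured genes correlated with a Pearson r of 0.9814 across genes, which are not independent replicates. The median difference over all measured genes was 0.05. Of these genes, 71 (0.453%) were higher in Mkx-KO by 2-fold or more and 523 (3.34%) were at least 2-fold lower, and all of them differed by more than 2 technical errors. The Mkx-KO array often stood apart, on the lower and on the higher side. For 290 of the 523 lower genes (55.4%) it alone stood apart, at least 2-fold below each of the other 3 arrays. For 88 (16.8%) the WT array of 4 weeks alone stood apart, at least 2-fold above each of the others, and for the remaining 145 both did or neither did. Among the 71 higher genes the Mkx-KO array alone stood apart for 38 (53.5%), a similar share, and the WT array for 3 (4.23%). Local patches of spots that read brighter than on the other arrays held probes of 253 genes on the WT array and of 39 genes on the Mkx-KO array. They included 20 of the 523 lower genes and 1 of the 71 higher genes. Without the patch probes, 15477 of the 15682 measured genes were left, with 503 lower and 70 higher. Patches thus held a larger share of the lower genes than of all measured genes. The share of lower genes among those 2-fold apart was 87.8% without the patch probes, against 88.0% with them. In whole tissue, fewer cells of a type and less RNA per cell cannot be told apart.

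Markers of the labelled tissue were bright in both preparations. Postn, the gene of periostin, a matricellular protein abundant in the PDL, stood at 8.09 in WT and 8.12 in the knockout. Col1a1, which encodes the main chain of type I collagen, stood at 8.34 and 8.38, and Col3a1, the gene of type III collagen, at 8.28 and 8.26. The collagen and calcium binding protein gene Sparc read 9.16 and 9.18, the proteoglycan gene Aspn 5.78 and 5.42, and the fibril-associated collagen gene Col12a1 4.85 and 4.91. Scx and Tnmd, the tendon regulator scleraxis and the membrane protein tenomodulin that it controls, were measured on both arrays as well. The 1 marker with a wide difference was Mkx itself. The brightest probes of Postn and Col1a1 lay in a brighter patch, and the lowest values among their other probes were -0.07 and -0.05.

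**Figure D1:**
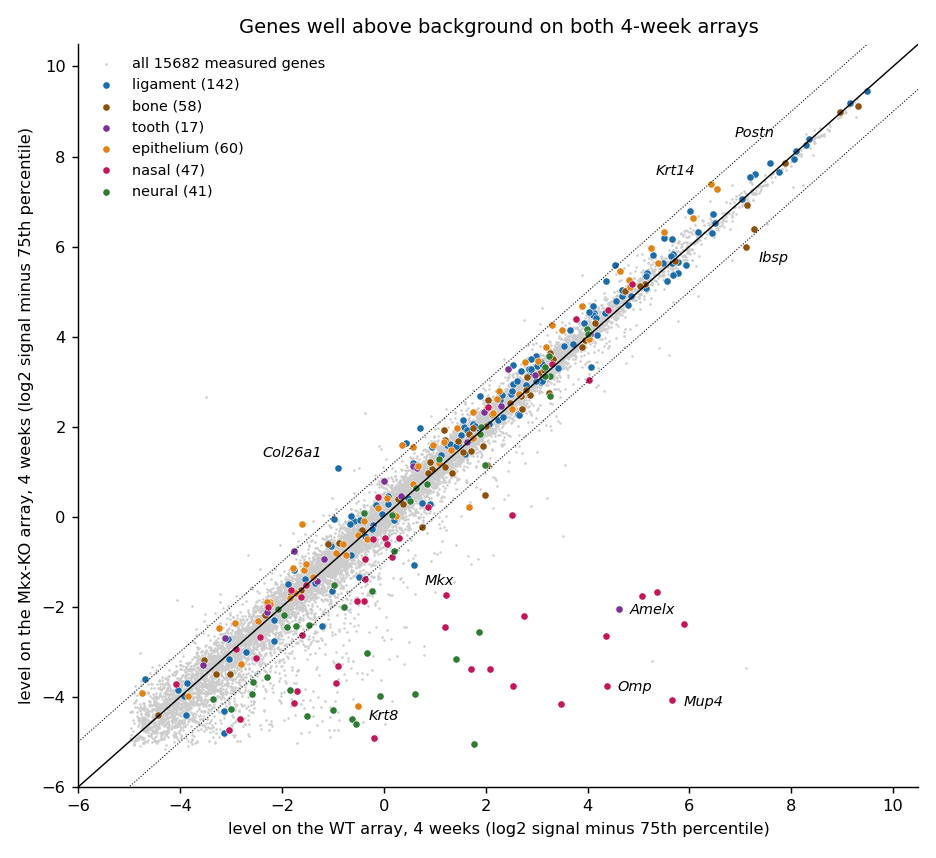
Level of each of 15682 genes on the WT array (horizontal axis) and the Mkx-KO array (vertical axis) at 4 weeks, in log2 signal less the array's 75th percentile, with members of 6 groups of lists in colour and their number in the legend. The solid line marks equal levels and dotted lines mark 2-fold differences. Most ligament, bone and epithelial genes lie between the dotted lines, with Mkx, Ibsp and Krt8 among those below and Col26a1 among those above. Many nasal and neural genes and Amelx lie far below the solid line.

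Mkx was the member of the tendon and ligament regulators that differed most. The probe that represents it, the brighter of 2, had processed signals of 563 and 193 in WT and Mkx-KO, levels of 0.59 and -1.07, a difference of -1.66 (technical error 0.21.) A second probe gave -1.39. The position of both probes with respect to the deletion was not used here, so these values do not check the knockout. No other regulator reached 2-fold. Over the 13 measured members, Mkx included, 8 differences were positive and 5 negative, and the median was 0.15. Scx stood at 2.84 in WT against 3.13 in Mkx-KO, and Tnmd at 1.59 and 1.39. The developmental regulators Six2 and Eya2 differed by 0.33 each, and Gdf5, a growth factor of joints and tendons, by -0.52 (-0.32 after quantile normalization and -0.27 after normexp correction). Apart from Mkx, no member of the list lay more than 2 technical errors from 0.

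Ligament genes as a whole stayed near the level of WT, with more of them above 0 than below. Of 146 genes in 9 lists, 142 were measured. Of these, 5 were at least 2-fold higher (against 0.453% of all genes). Another 4 were at least 2-fold lower, a share near the 3.34% of all genes. The median difference of the 142 was 0.20, against 0.05 over all genes. Positive differences were seen for 98 (against 57.4% of all measured genes), and 33 lay above 0 by more than 2 technical errors (against 6.41% of all genes). At 10 weeks the median over the 142 genes of these lists measured at that age, not all of them the same, was 0.03, with 76 positive and 66 negative.

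The chains of the main collagen fibrils hardly differed. Col1a2, which encodes the second chain of type I collagen, differed by -0.04, or by 0.17 after quantile normalization. Type V collagen, which nucleates fibrils and limits their width, was higher in 2 of its 3 chain genes. Col5a1 read 6.01 in WT and 6.80 in the knockout, and Col5a3 read 1.89 and 2.69, while Col5a2 read 3.71 and 3.85. The differences of Col5a1 and Col5a3, 0.78 and 0.79, were below 2-fold and exceeded 2 technical errors. A second Col5a3 probe gave 1.13, which is above 2-fold. The median over the 9 fibrillar collagen genes was 0.14.

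Collagens that sit on or beside fibrils were mostly higher in Mkx-KO. Of 14 measured genes, 13 were above 0 (against 57.4% of all measured genes), and the median was 0.36. Of the 14, 7 lay above 0 by more than 2 technical errors (against 6.41% of all genes). All 3 widely expressed chains of the beaded filament collagen VI were positive: the values were 0.68 for Col6a1, 0.83 for Col6a2 and 0.23 for Col6a3. Col12a1 and Col14a1, whose products bridge neighbouring fibrils, differed by 0.06 and 0.42. The widest difference was that of Col26a1, which stood at -0.91 in WT against 1.07 in Mkx-KO, a difference of 1.98. A second Col26a1 probe gave only 0.66, so the size of its difference depends on the probe. On the arrays of 10 weeks Col26a1 read -3.83 in WT and -4.46 in the knockout, lower than on either array of 4 weeks.

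Small leucine-rich proteoglycans, which bind collagen and regulate fibril growth, leaned the other way. Of 14 measured members 12 were negative (against 42.6% of all measured genes) and 2 positive, but the median was only -0.12, and 2 members lay below 0 by more than 2 technical errors. Kera, the gene of keratocan, read -3.15 in WT against -4.31 in Mkx-KO, a difference of -1.17 that became -0.53 after normexp background correction and -0.97 after quantile normalization. Ecm2 differed by -0.45, and Aspn and Podn by -0.36 each. The abundant members Dcn and Lum, the genes of decorin and lumican, differed by -0.12 and -0.11. The 2 positive members were Fmod, the gene of fibromodulin, at 2.53 in WT and 2.95 in the knockout, and Bgn, the gene of biglycan, at 2.29 and 2.60. Epyc was well above background in Mkx-KO only, with a bound of at least 1.08-fold higher.

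Matricellular and adhesive proteins, which modulate how cells hold on to matrix, were split, with 13 positive and 10 negative among 23 genes and a median of 0.03. Spon2, the gene of the secreted adhesion protein spondin 2, stood at 4.54 in WT against 5.60 in Mkx-KO. Its difference of 1.06 became 0.98 after quantile normalization, and at 10 weeks it was 1.49. Dpt, the gene of the fibril-binding protein dermatopontin, differed by 0.93, and the tenascin genes Tnc and Tnn by 0.62 and 0.53. On the lower side were Smoc1 (-0.85), Comp (-0.63), which encodes cartilage oligomeric matrix protein, and the tenascin gene Tnxb (-0.62, or -0.29 after normexp correction). Ccn2 and Ccn1, both mechanically responsive genes of the CCN family, differed by -0.75 and -0.40. Ccn2 stood at 4.07 in WT and 3.33 in the knockout.

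Among enzymes that modify and cross-link collagen, 7 of 9 were positive (against 57.4% of all genes), 3 by more than 2 technical errors and none by 2-fold, with a median of 0.38. Lox, the gene of lysyl oxidase, stood at 4.36 in WT against 5.23 in Mkx-KO. The difference of 0.87 was seen with both of its probes (0.87 and 0.88), and at 10 weeks it was 0.94. Plod3, a lysyl hydroxylase gene, differed by 0.60, and the remaining Lox and Plod family members by -0.04 to 0.42.

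Genes that hydroxylate, fold and trim procollagen differed in the same direction, with 20 of 23 positive (against 57.4% of all genes) and a median of 0.30. P4ha2, a subunit gene of prolyl 4-hydroxylase, stood at 2.90 in WT and 3.50 in the knockout. The collagen chaperone genes Fkbp10 and Serpinh1 differed by 0.50 and 0.26, and P3h4 and Crtap, whose products act with the prolyl 3-hydroxylases, by 0.47 and 0.41. Adamts3, which removes the amino-terminal propeptide, differed by 1.09, from -4.70 to -3.61, but only by 0.21 after normexp correction. The 3 negative members were Tll1 (-0.30), Tmem38b (-0.13) and Pcolce2. Pcolce2, an enhancer of carboxy-terminal cleavage, stood at -1.21 in WT against -2.42 in Mkx-KO (-0.73 after normexp correction). Its relative Pcolce differed by 0.35.

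Elastic and oxytalan fibre genes were positive in 15 of 17 cases (against 57.4% of all genes), with a median of 0.26. Fbn2, which encodes fibrillin 2, a component of microfibrils in growing tissue, read 0.70 in WT and 1.97 in the knockout, a difference of 1.26 that its second probe put at 1.36. At 10 weeks it read -0.93 in WT against -0.81 in Mkx-KO. Fbn1 differed by 0.40, and the microfibril-associated genes Mfap4 and Mfap2 by 0.67 and 0.57. Eln, the elastin gene, differed by 0.02, and Efemp1, the gene of fibulin 3, by -0.63.

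Among 20 matrix proteases and their inhibitors, 14 were positive (against 57.4% of all genes) and the median was 0.16. Adamts4, an aggrecanase gene, was the widest on the higher side, at 0.43 in WT and 1.63 in the knockout. Timp4, an inhibitor of metalloproteinases, was the widest on the lower side, at -3.14 in WT against -4.81 in Mkx-KO, a difference of -1.67 that became -0.60 after normexp correction. The collagenase gene Mmp13 differed by -0.33, the membrane-bound activator Mmp14 by 0.52, and Mmp2 by 0.36. The remaining members lay between -0.35 and 0.61.

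**Figure D2:**
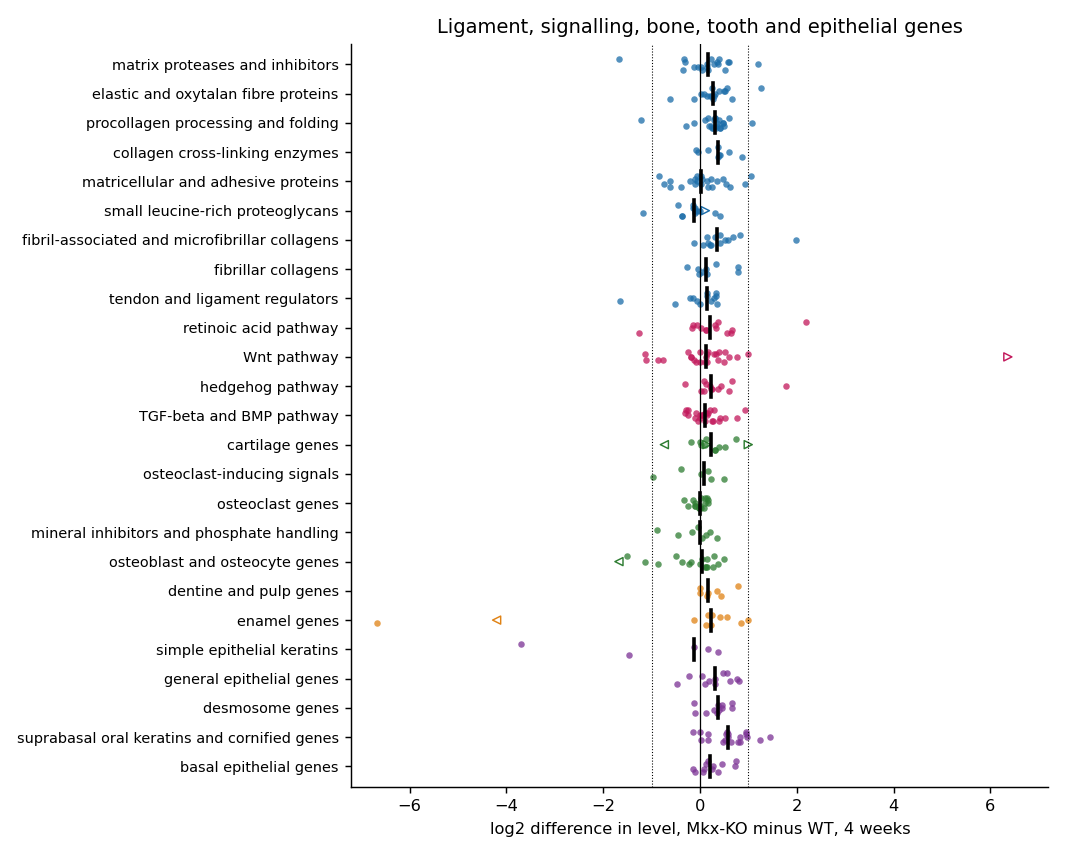
Difference in level between Mkx-KO and WT at 4 weeks (horizontal axis, log2) for each member of the ligament, signalling, bone, tooth and epithelial lists, with 1 dot for each gene measured on both arrays, open triangles for bounds of genes well above background on 1 array only, and a black bar at the median of each list. Colours separate ligament, signalling, bone, tooth and epithelial lists, and dotted lines mark 2-fold. Most dots lie inside the dotted lines, with Amelx, Krt8, Cyp26a1, Col26a1 and Hhip outside them, and the triangle of Wnt9b on the right comes from a probe in a brighter patch.

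Signalling genes differed little as a group. Over 77 measured members of the TGF-beta and BMP, hedgehog, Wnt and retinoic acid pathways, 2 were at least 2-fold higher (against 0.453% of all genes), 3 at least 2-fold lower (a share near the 3.34% of all genes), and the median was 0.13. Of the TGF-beta and BMP pathway no member reached 2-fold in either direction (against 3.79% of all measured genes). Its widest values were for Grem1, the gene of the BMP antagonist gremlin 1 (-1.32 in WT and -0.40 in the knockout), and for the ligand gene Bmp7 (1.34 and 2.11).

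Hedgehog ligands bind the receptor Ptch1, which releases Smo and activates Gli factors. Those factors in turn induce Gli1 and the decoy receptor Hhip. Of 13 measured members of this pathway 12 were positive (against 57.4% of all genes), with a median of 0.23. Hhip stood at -3.77 in WT against -1.99 in Mkx-KO, a difference of 1.78 (1.83 by its second probe) that became 0.71 after normexp correction. Its level on the WT array was at least 2-fold below each of the other 3 arrays. Gli1 read 0.55 in WT and 1.20 in the knockout, and Gli2 differed by 0.60, or by 0.14 after normexp correction. Ptch1, named after its value was seen, differed by 0.08 and did not share the difference of Gli1.

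In the Wnt pathway the lower side held Rspo3, a secreted amplifier of Wnt signals (-2.75 in WT against -3.90 in Mkx-KO), Dkk1, a secreted inhibitor (-2.23 and -3.35), and the R-spondin receptor gene Lgr5 (-0.88 in difference, or -0.38 after normexp correction). Rspo3 and Dkk1 were below 2-fold after normexp correction, at -0.57 and -0.70, and after quantile normalization, at -0.96 each. Nkd1, an inhibitor that Wnt signals induce, was on the higher side at 0.04 in WT and 1.04 in the knockout. Axin2, another such target and named after its value was seen, differed by less than 0.01. Wnt9b was well above background in Mkx-KO only, but its probe lay in a brighter patch of that array.

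Retinoic acid is made by Aldh1a enzymes and broken down by Cyp26 enzymes, and it induces Cyp26a1 through response elements in the promoter of that gene. Cyp26a1 stood at -4.05 in WT against -1.86 in Mkx-KO, a difference of 2.20 (technical error 0.27.) Its processed signals were 22.5 and 112, and the difference became 0.85 after normexp correction, which adds an offset of 50 to every signal. At 10 weeks its levels were -6.15 and -5.89. Cyp26b1 differed by 0.64, and the retinol carrier gene Rbp4 by 0.66. Aldh1a1 was lower, at 1.89 in WT and 0.62 in the knockout, and its level was at least 2-fold below each of the other 3 arrays. The 250 bases before the Cyp26a1 start (RefSeq, build GRCm38.p6, chr19:37697558-37697807, plus strand) are shown because the response element, in capitals on the opposite strand, lies 32 to 16 bases before the start.
Cyp26a1: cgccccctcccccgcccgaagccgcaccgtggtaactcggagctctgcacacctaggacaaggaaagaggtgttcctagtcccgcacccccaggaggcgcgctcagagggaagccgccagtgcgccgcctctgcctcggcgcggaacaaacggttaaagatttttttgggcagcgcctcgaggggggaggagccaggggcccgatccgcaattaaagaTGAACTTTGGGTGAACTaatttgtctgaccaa
The motif searched on both strands was AGTTCA repeated after a gap of 5 bases. The Cyp26a1 element has exactly these letters, and other spellings of the response element were not searched. This spelling occurred before 1 of 12 retinoic acid pathway genes with a promoter sequence and before 7 of 27025 genes in all (0.0259%). These counts cover this spelling only and do not give the frequency of retinoic acid response elements. A match is a description of the sequence and not a site of binding.

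Bone genes as a group were near the WT level. Of 66 genes, 58 were measured, none at least 2-fold higher and 2 at least 2-fold lower, a share near the 3.34% of all genes, with a median of 0.03. Both lower genes encode acidic phosphoproteins of bone and cementum. Ibsp, the gene of bone sialoprotein, stood at 7.11 in WT against 5.98 in Mkx-KO, a difference of -1.13, whereas at 10 weeks it was 4.90 in WT and 6.47 in the knockout. Mepe, expressed by osteocytes, read 1.98 in WT against 0.47 in Mkx-KO, against 2.27 and 3.21 at 10 weeks. The related genes Spp1 (osteopontin) and Dmp1 differed by -0.88 and -0.50.

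Sost, the osteocyte gene of the Wnt inhibitor sclerostin, passed background on the WT array alone and was at least 3.19-fold lower in the knockout. Not all osteoblast and osteocyte genes differed in the same way. Phex and Fgf23, of the same list, differed by 0.0027 and 0.14. The osteocalcin genes Bglap and Bglap2 differed by -0.22 and -0.19, the regulators Runx2 and Sp7 by -0.36 and 0.13 (Runx2 by 0.03 as the mean of its 3 probes), and the phosphatase gene Alpl by 0.28. Over 17 measured osteoblast and osteocyte genes 10 differences were positive and 7 negative. Enpp1, which makes the mineral inhibitor pyrophosphate, differed by -0.89, from 2.04 to 1.15.

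Osteoclast genes lay close to the WT level. All 17 were measured, with differences from -0.33 for Car2 to 0.17 for Itgb3 and a median of 0.01, or -0.05 after quantile normalization. No member exceeded 2 technical errors. Ctsk, the gene of the collagen-degrading cathepsin K, stood at 7.87 in WT and 7.85 in the knockout, and the acid phosphatase gene Acp5, whose probe lay in a brighter patch, at 8.96 and 8.98. At 10 weeks the median of the same genes was 0.89. Among signals that induce or restrain osteoclasts, Il34, a ligand of the Csf1 receptor, differed by -0.97, the inducer Tnfsf11 (RANKL) by 0.49, and its decoy receptor Tnfrsf11b by -0.38. Cartilage genes had a median of 0.22 over 10 measured members, with Col9a2 at 0.74 and Col2a1 at 0.10.

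Tooth genes were split between a wide difference of the enamel matrix genes Amelx and Enam and small, mostly positive values. Of 19 genes, 17 were measured and 14 were positive (against 57.4% of all genes), with a median of 0.23. Of the 17, 5 lay above 0 by more than 2 technical errors (against 6.41% of all genes), none of them by 2-fold. Odaph and Msx1 differed by -0.12 and -0.01. Amelx, the gene of amelogenin, the main protein of forming enamel, stood at 4.62 in WT against -2.05 in Mkx-KO, a difference of -6.67 with both of its probes. At 10 weeks it stood at 3.03 in WT and 2.70 in the knockout, so it was low only on the Mkx-KO array of 4 weeks. Enam, the gene of enamelin, passed background on the WT array alone and was at least 18.4-fold lower.

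Other genes of ameloblasts, the cells that make enamel, did not share these differences. Ambn (ameloblastin) read 0.35 in WT against 0.46 in Mkx-KO, and the enamel protease genes Mmp20 and Klk4 differed by 0.23 and 0.18. Amtn (amelotin) and Odam, which are made by maturing and by gum-attached epithelium, were higher, Amtn at -1.77 in WT and -0.77 in the knockout and Odam by 0.84. Dspp, the main dentine matrix gene, read 2.98 and 3.14, and Msx2 differed by 0.79. The part that dental epithelium in the preparations plays in the values of Amelx and Enam was not tested.

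Epithelial genes were mostly higher in Mkx-KO. Of 60 measured genes in 5 lists 49 were positive (against 57.4% of all genes), and the median was 0.38. Differences of 27 lay above 0 by more than 2 technical errors (against 6.41% of all genes). Of the 60, 2 were at least 2-fold higher (against 0.453% of all genes). Another 2 were at least 2-fold lower, a share near the 3.34% of all genes. Keratins of the dividing basal layer, Krt5 and Krt14, differed by 0.73 each, and Krt14 stood at 6.54 in WT against 7.27 in Mkx-KO. Differences were wider in the layers above: of 20 measured suprabasal genes 18 were positive, 15 by more than 2 technical errors, with a median of 0.58. Krt1 read -1.60 in WT and -0.17 in the knockout, and Krt78 read 0.36 and 1.60. Krt13 and Krt4, the keratin pair of non-cornified oral lining, differed by 0.96 and 0.98, and Krt6a by 0.96.

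Desmosomes, which rivet neighbouring keratinocytes together, had a median of 0.38 with 9 of 11 members positive (against 57.4% of all genes). Pkp1 differed by 0.67 and Jup by 0.66. At 10 weeks the direction was the opposite: the median of the epithelial genes was -0.65, with 56 of 60 negative. Keratins of simple epithelium, the kind that lines glands and airways, were mixed, with a median of -0.12 over 5 genes that became 0.06 after quantile normalization. Krt19 and Krt23 differed by 0.38 and 0.17, and Krt7 by -0.12. Krt8 stood at -0.50 in WT against -4.21 in Mkx-KO, a difference of -3.70 (-1.94 after normexp correction), against 0.85 and 0.73 at 10 weeks. Its partner Krt18 read 1.67 in WT and 0.21 in the knockout, and its difference at 10 weeks was -0.18. Both were at least 2-fold below each of the other arrays on the Mkx-KO array of 4 weeks.

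Many nasal and olfactory transcripts were lower on the Mkx-KO array, and a large part was well above background on the WT array alone. Of 85 such genes on the array, 47 were measured on both, 26 of them 2-fold lower or more (against 3.34% of all genes) and none 2-fold higher. The other 21 lay within 2-fold, 10 of the 47 were positive, and 6 of the 85 were above background on neither array. A further 32 passed background on the WT array alone (against 3.06% of all named genes), and none on the Mkx-KO array alone (against 1.16%). The median over the 47 was -1.04, and -2.69 with the 32 at their bounds. A bound sets the WT level against the lowest level that was well above background on the Mkx-KO array, or the gene's own level where that is higher. A gene above background in WT alone can only take a negative bound, so a median with bounds is no separate support for lower levels.

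Olfactory sensory neurons detect odours with cilia that carry receptors, a G protein, the cyclase Adcy3 and cyclic nucleotide channels. Omp, the marker protein of these neurons when mature, stood at 4.72 in WT against 4.40 in Mkx-KO at 10 weeks, and at 4.38 in WT at 4 weeks. In Mkx-KO at 4 weeks it was -3.75, a difference of -8.14. Gng13, a G protein subunit gene, went with it, at 2.54 in WT and -3.77 in the knockout. S100a5, Umodl1 and Stoml3 were at least 240.5-fold, 63.0-fold and 37.8-fold lower by their bounds. Of 20 mature neuron genes 9 were measured on both arrays and 11 on the WT array only (against 3.06% of all named genes). The median of the 9 was -1.49, and -3.42 with bounds. Some members differed by less: Adcy3 by 0.01, Kirrel3 by -0.15 and Ric8b by -0.48, all named after their values were seen. The element of Ebf proteins, TCCC followed by GGGA after a gap of 2 bases, occurred before 1 of 15 of these genes with a promoter sequence and before 0.914% of 27025 genes.

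Genes of younger olfactory neurons were mixed. Lhx2, a regulator needed for these neurons, stood at -0.19 in WT against -4.91 in Mkx-KO, and Ebf2 at -0.89 and -3.32, with differences of -2.58 and -1.49 after normexp correction. Emx2 and Dcx were at least 10.1-fold and 6.44-fold lower by their bounds. Of 9 measured members 4 were at least 2-fold lower (against 3.34% of all genes) and 3 were positive.

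Supporting cells and glands of the olfactory lining express enzymes that modify odorants. Cyp2a5 stood at 5.07 in WT and -1.76 in the knockout, and its near-identical relative Cyp2a4 at 4.37 and -2.65. Their probes may not separate these genes. Cyp2g1 and Sec14l3 were at least 294-fold and 124-fold lower, and Ugt2a1 differed by -5.47.

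Secreted odorant carriers showed some of the widest differences of the comparison. Mup4, a major urinary protein gene that nasal glands also express, stood at 8.41 in WT against 9.16 in Mkx-KO at 10 weeks, at 5.67 in WT at 4 weeks, and at -4.08 in Mkx-KO at 4 weeks. Bpifb9b was at least 11689-fold lower, Mup20 587-fold and Mup21 462-fold. Of 22 carrier genes on the array, 10 were measured on both arrays and 12 were well above background in WT only (against 3.06% of all named genes). Of the 10, 8 were at least 2-fold lower (against 3.34% of all genes). Bpifb1, named after its value was seen, differed by 0.27 and Bpifa1 by -0.65. Genes of the Mup, Bpif and Obp families are similar enough in sequence that probes may share targets.

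The receptor genes themselves separated the arrays less. Of 1080 olfactory receptor genes, 134 (12.4%) were well above background in WT and 116 (10.7%) in Mkx-KO. Of 98 measured on both arrays, 2 were at least 2-fold lower (against 3.34% of all genes), and the median was -0.03. Another 36 passed background on the WT array alone and 18 on the Mkx-KO array alone. By their bounds 13 receptors were at least 2-fold lower and 1 at least 2-fold higher, against 384 and 22 of 22907 named genes. Motile cilia genes had a median of -0.25 over 9 measured members, with the ciliary regulator Foxj1 at -3.05 in WT and -4.74 in the knockout (-0.53 in difference after normexp correction). Airway gland and mucin genes, a list written after these values were seen, had a median of -1.62 over 9 members. Muc5b, the gene of a mucin of airway glands, stood at 3.52 in WT against -0.42 in Mkx-KO, and Tff2 was at least 45.2-fold lower.

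Neural genes leaned the same way. Of 41 measured members, 17 were lower by 2-fold or more (against 3.34% of all genes) and none higher by as much. Chga and Syt1, genes of secretory granules and of synaptic vesicle release, stood at 1.77 and 1.43 in WT and at -5.04 and -3.16 in Mkx-KO. Chga differed by -4.37 after normexp correction. Some genes of inhibitory neurons differed differently from olfactory ones over the 4 arrays. Of 11 measured, 7 were negative and 4 positive. Of the 11, 6 had their highest level of the 4 arrays in WT at 4 weeks (against 17.8% of all measured genes). Slc32a1, the transporter that loads GABA into vesicles, stood at -2.73 in WT and -0.59 in the knockout at 10 weeks, and at 0.61 in WT against -3.94 in Mkx-KO at 4 weeks. Gad1, which makes GABA, read -3.89 and -1.24 at 10 weeks, and -0.62 and -4.49 at 4 weeks. Their levels in WT at 4 weeks were thus the highest of all 4 arrays, and their differences were -2.75 and -1.97 after normexp correction.

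Snap25 and Tubb3, also neuronal and named after their values were seen, differed by 0.19 and 0.09. Genes of Schwann cells, the glia of nerves within the ligament, had a median of -0.12 over 9 members.

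Leaving out the nasal and neural lists and all chemosensory receptors took little away from the lower side. Of 15470 remaining genes 476 (3.08%) were at least 2-fold lower and 71 (0.459%) at least 2-fold higher. Of the 523 lower genes, 406 (77.6%) belonged to no list and to no receptor family. Genes known by a clone or locus number are left unnamed, and 1 of them had the widest lower value of all measured genes, -10.49. Farthest apart among the named genes outside the nasal and neural lists were Amelx, Pip, Nrip3, Nrn1l, Dnase1, Muc5b, Inpp5j, Aard, Celf3 and Vgf, from -6.67 to -3.77. After normexp correction Pip differed by -2.39, Nrip3 by -2.56, Nrn1l by -2.50, Dnase1 by -2.23, Inpp5j by -2.35, Aard by -1.71, Celf3 by -1.88 and Vgf by -1.75. Celf3, a splicing regulator, and Vgf, a neuropeptide precursor, are best known from neurons, and Pip and Dnase1 from secretory glands, so the lists do not hold every gene of those tissues. The probe of Aard lay in a brighter patch.

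Skeletal muscle genes were lower in Mkx-KO throughout the list. All 20 measured members were negative, 17 by more than 2 technical errors (against 9.07% of all genes), with a median of -1.15. Of the 20, 14 were at least 2-fold lower (against 3.34% of all genes). Tcap, a gene of the sarcomere's anchoring disc, stood at 3.88 in WT and 4.15 in the knockout at 10 weeks, and at 2.43 in WT against 0.48 in Mkx-KO at 4 weeks. Myl1, a myosin light chain gene, read 4.33 and 2.79 at 4 weeks. The median level of the list was 2.12 in WT and 0.57 in the knockout, and in 13 of the 14 lower genes the Mkx-KO array alone stood apart from the others.

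Salivary gland genes were lower as well, with Pip at 0.02 in WT against -4.61 in Mkx-KO, and with Car6, Dcpp2 and Bpifa2 at least 21.9-fold, 14.5-fold and 13.8-fold lower. Their median was -0.86 over 7 measured genes, and -1.77 over 12 with bounds. Adipocyte genes had a median of -0.65, with Adipoq at -2.77 in WT and -4.54 in the knockout (-0.67 in difference after normexp correction) and Lpl at 0.90 in difference. Endothelial genes, by contrast, had a median of -0.01 over 12 members (0.01 when centred on the median), from -0.49 for Cldn5 to 0.46 for Plvap.

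Several contractile genes of smooth muscle and myofibroblasts were higher, in a list with a median of 0.20. Acta2, the smooth muscle actin gene, stood at 2.76 in WT against 4.38 in Mkx-KO, but its 3 probes ranged from 0.31 to 1.62. Tagln (transgelin) read 3.07 in WT and 4.28 in the knockout, and Myl9 and Smtn differed by 0.85 and 0.71. Des, the desmin gene, which skeletal muscle also uses, went the other way at -1.58, or -0.77 after normexp correction. The part that muscle, gland, nasal and nerve tissue in the preparations plays in any other difference given here was not tested.

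**Figure D3:**
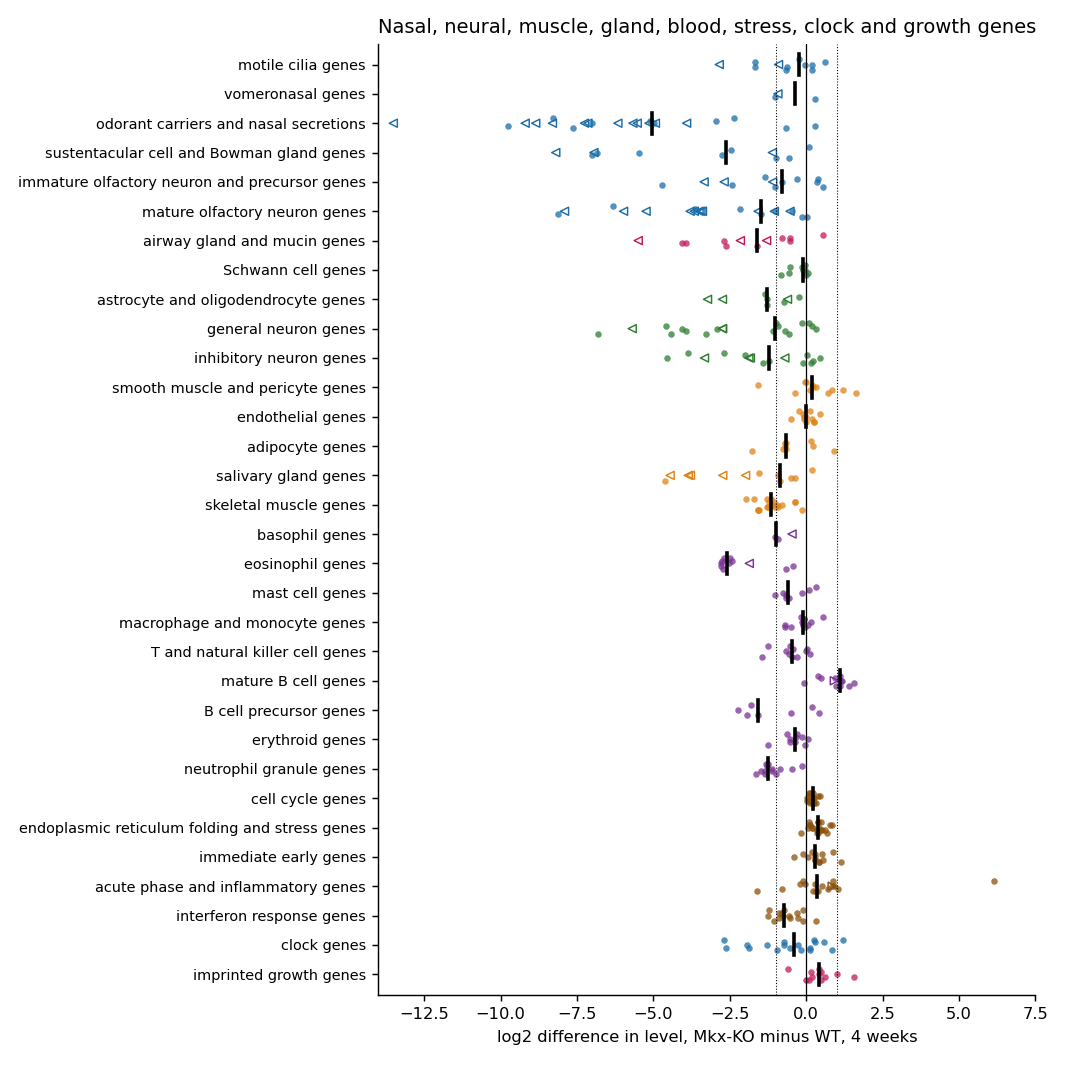
Difference in level between Mkx-KO and WT at 4 weeks (horizontal axis, log2) for members of the lists of nasal, neural, muscle, gland, vessel, blood, stress, clock and growth genes. Dots are genes measured on both arrays, open triangles are bounds of genes well above background on 1 array only, and black bars are medians. Odorant carriers lie farthest to the left, eosinophil genes form a tight cluster near their median of -2.60, and mature B cell genes lie to the right of 0.

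Marrow and blood lineages differed from each other. Neutrophil granule genes were lower, with 13 of 13 negative (against 42.6% of all genes), 9 at least 2-fold (against 3.34%), and a median of -1.24. Camp, the gene of the antimicrobial peptide cathelicidin, stood at 5.40 in WT against 3.76 in Mkx-KO, and Ctsg, the gene of cathepsin G, at 1.51 and 0.02. Eosinophil genes, a list written after their values were seen, were lower by more. Of 10 measured, 8 were at least 2-fold lower (against 3.34% of all genes) and the median was -2.60. Prg2, the gene of the granule's major basic protein, stood at 2.02 in WT and 3.08 in the knockout at 10 weeks, and at 3.20 in WT against 0.43 in Mkx-KO at 4 weeks. Epx, the eosinophil peroxidase gene, read -0.64 in WT and -3.37 in the knockout, or -1.65 in difference after normexp correction. The Ear genes, which encode eosinophil ribonucleases, form a family with similar sequences, so their probes may read the same transcripts.

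B cell genes split by stage. Igll1 and Vpreb1, parts of the surrogate light chain that only precursors carry, differed by -2.24 (-1.08 after normexp correction) and -1.79, and Dntt, which edits antigen receptor joints in precursors, by -1.93. Of 7 measured precursor genes 4 were at least 2-fold lower (against 3.34% of all genes). Mature B cell genes were higher, with 10 of 11 positive (against 57.4% of all genes), 6 at least 2-fold (against 0.453%), and a median of 1.11. Ms4a1, which encodes CD20, stood at -0.05 in WT and differed by 1.55, and Tnfrsf13c stood at -2.04 in WT against -0.63 in Mkx-KO. At 10 weeks the mature B cell median was 1.22, so this list was higher in Mkx-KO at both ages. Among the higher members, Cd79a and Niban3 were below 2-fold after normexp correction, at 0.39 and 0.60.

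Erythroid genes had a median of -0.36, T and natural killer cell genes -0.48, mast cell genes -0.60, and macrophage genes -0.10. Among these, Alas2, the haem synthesis enzyme of red cell precursors, read 6.16 in WT and 4.91 in the knockout, and the lymphocyte protease gene Gzma 0.61 and -0.85.

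Interferon response genes were lower in 14 of 15 cases (against 42.6% of all genes), with a median of -0.74. Of the 15, 3 were at least 2-fold lower (against 3.34% of all genes). Rsad2, an antiviral enzyme gene, stood at 2.14 in WT against 0.89 in Mkx-KO. Ifit2 and Ifit3, whose products hold back translation of viral RNA, differed by -1.20 and -1.07, but by -0.51 and -0.84 after normexp correction, and Ifit3 by -0.99 after quantile normalization. Cxcl9, which draws T cells, differed by -0.88 at 4 weeks, from -3.61 to -4.50 (-0.35 after normexp correction), against -5.73 at 10 weeks. The 250 bases before the start of Ifit3 (RefSeq, GRCm38.p6, chr19:34583279-34583528, plus strand) are shown with 2 interferon response elements in capitals, both on the opposite strand.
Ifit3: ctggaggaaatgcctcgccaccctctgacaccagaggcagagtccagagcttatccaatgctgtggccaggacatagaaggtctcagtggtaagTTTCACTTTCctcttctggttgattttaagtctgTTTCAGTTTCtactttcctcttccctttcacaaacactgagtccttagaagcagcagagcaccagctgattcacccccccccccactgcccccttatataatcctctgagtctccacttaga
The motif searched on both strands was GAAA repeated after a gap of 2 bases, and overlapping matches were counted. It occurred before 7 of 11 interferon response genes with a promoter sequence (63.6%) and before 3.46% of 27025 genes.

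Acute phase and inflammatory genes held the widest difference on the higher side among genes measured on both arrays. Saa3, which encodes a serum amyloid A protein made in inflamed tissue, stood at -3.49 in WT and 2.67 in the knockout, signals of 33.2 and 2566 and a 71.3-fold difference. At 10 weeks it was -0.21 in WT against -1.82 in Mkx-KO. Other members were closer to 0: Saa1 differed by 0.90, the chemokine genes Ccl3 and Cxcl2 by 1.04 and 0.87, and Orm1 by -1.61, with a median of 0.35 over 16 members. Ccl3 and Orm1 were under 2-fold after normexp correction, at 0.63 and -0.53, and Cxcl2 then differed by 0.43. Immediate early genes, which respond within minutes to handling as well as to growth signals, had a median of 0.29. Of 14, 12 were positive (against 57.4% of all genes), and Fosl1 differed by 1.12 (0.20 after normexp correction). All 17 cell cycle genes were positive around a median of 0.21, the widest being Plk1 at 0.46.

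Genes of protein folding in the endoplasmic reticulum were higher in 19 of 20 cases (against 57.4% of all genes), none of them at least 2-fold. Their median was 0.39, and 8 lay above 0 by more than 2 technical errors (against 6.41% of all genes). Creb3l1, which encodes a sensor of the secretory load in bone and fibroblasts, stood at 3.20 in WT and 4.04 in the knockout. Manf, a secreted folding factor, read 2.06 and 2.84, and the disulphide isomerase genes Pdia4 and Pdia6 differed by 0.67 and 0.60. At 10 weeks the median of the list was 0.02. Hspa5, the gene of the central chaperone BiP, differed by 0.47 and is named, like its promoter, after its value was seen. The promoters of Hspa5 (RefSeq, GRCm38.p6, chr2:34771840-34772089, plus strand) and Pdia6 (chr12:17266339-17266588, plus strand) are shown because nearly all of the list was positive, with the ER stress element in capitals.
Hspa5: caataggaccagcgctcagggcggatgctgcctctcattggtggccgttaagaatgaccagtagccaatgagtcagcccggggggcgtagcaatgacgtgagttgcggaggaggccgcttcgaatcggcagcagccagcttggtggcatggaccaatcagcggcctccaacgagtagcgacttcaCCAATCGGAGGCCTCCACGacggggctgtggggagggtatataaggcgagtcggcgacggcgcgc
Pdia6: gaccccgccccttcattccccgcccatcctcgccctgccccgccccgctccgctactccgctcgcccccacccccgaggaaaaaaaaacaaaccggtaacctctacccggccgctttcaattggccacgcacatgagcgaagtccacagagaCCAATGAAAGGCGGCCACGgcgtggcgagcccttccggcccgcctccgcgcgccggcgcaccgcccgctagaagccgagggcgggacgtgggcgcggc
The motif searched on both strands was CCAAT followed by CCACG after a gap of 9 bases. It occurred before 7 of 17 genes of the list (41.2%) and before 0.13% of 27025 genes.

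Genes of the circadian clock differed in both directions. In the clock, Arntl with Clock or Npas2 activates the Per and Cry genes, the output factors Dbp, Hlf and Tef, and the repressors Nr1d1 and Nr1d2, which in turn shut off Arntl. The list was written after its values were seen. Per3 stood at 0.05 in WT against -0.59 in Mkx-KO at 10 weeks, and at -1.56 in WT and -4.24 in the knockout at 4 weeks, a difference of -2.69 (-1.30 after normexp correction). Dbp stood at 4.53 and 4.68 at 10 weeks, and at 2.89 and 0.25 at 4 weeks. The 4-week differences of Hlf, Nr1d2 and Tef were -1.95, -1.88 and -1.30, while those at 10 weeks were -0.17, 0.05 and -0.14.

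All 5 of these were at least 2-fold below each of the other arrays on the Mkx-KO array of 4 weeks, and no other clock gene was at least 2-fold lower. Arntl, Npas2 and Nfil3, which are high when those genes are low, were on the higher side. Arntl read -0.29 in WT against 0.55 in Mkx-KO, Npas2 -3.52 and -2.31, and Nfil3 differed by 0.58. The labels give no time of day for the dissections, so the part of collection time was not tested. Promoters of Per3 (RefSeq, GRCm38.p6, chr4:151044666-151044915, minus strand) and of Tef (chr15:81811164-81811413, plus strand, 1 of its starts) are shown on the strand of the gene. Capitals mark 2 D-boxes, which Dbp, Hlf and Tef proteins bind, in Per3, and an E-box, which Arntl and its partners bind, in Tef.
Per3: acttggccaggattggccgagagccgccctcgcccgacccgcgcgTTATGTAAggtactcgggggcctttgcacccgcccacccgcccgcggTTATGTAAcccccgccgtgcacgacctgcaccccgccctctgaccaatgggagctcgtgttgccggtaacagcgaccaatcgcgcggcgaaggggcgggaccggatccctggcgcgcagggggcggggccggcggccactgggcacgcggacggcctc
Tef: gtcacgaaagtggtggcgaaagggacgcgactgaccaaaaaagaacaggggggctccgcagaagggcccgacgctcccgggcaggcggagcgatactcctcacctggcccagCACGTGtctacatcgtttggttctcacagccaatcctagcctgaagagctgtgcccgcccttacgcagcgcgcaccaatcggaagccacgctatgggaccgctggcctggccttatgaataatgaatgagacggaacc
Both motifs were searched on both strands. TTANGTAA occurred before 1 of 16 clock genes with a promoter sequence and before 2.44% of 27025 genes, and CACGTG before 5 of 16 (31.2%) and before 6.86%. TAGGTCA, the element of Nr1d and Ror proteins, occurred before 1 of 16, Nfil3, and before 2.55% of all genes.

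**Figure D4:**
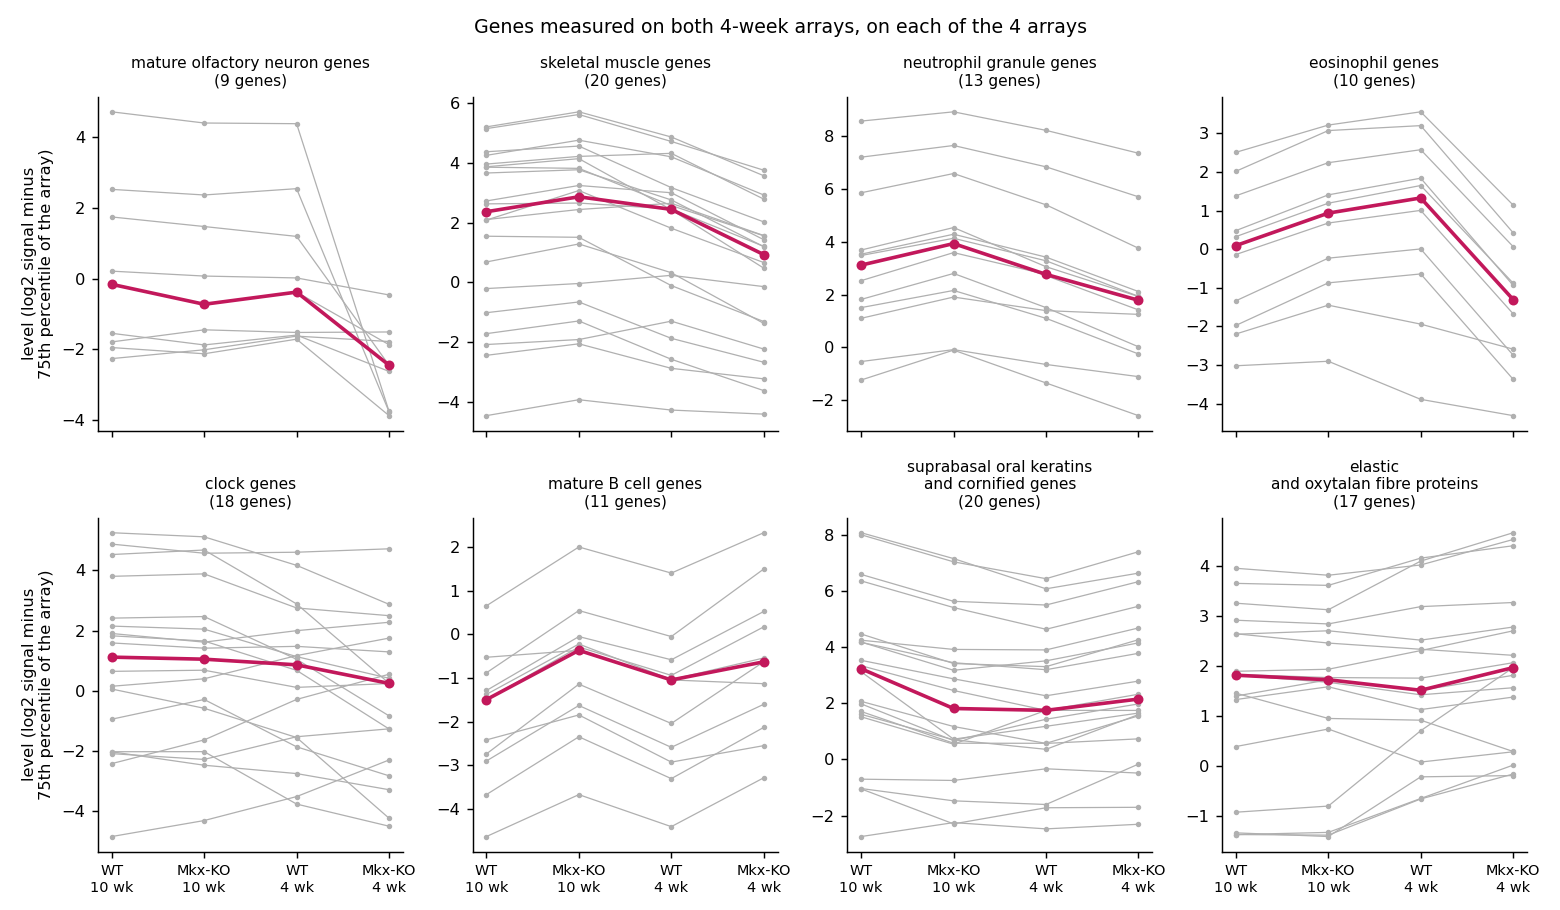
Levels (vertical axes, log2 signal less the array's 75th percentile) of genes of 8 lists on each of the 4 arrays, with 1 grey line for each gene measured on both 4-week arrays and the median in dark pink. Olfactory neuron, muscle, neutrophil and eosinophil genes have their lowest median on the Mkx-KO array of 4 weeks, mature B cell genes have a higher median in Mkx-KO than in WT at each age, and suprabasal keratins are lower in Mkx-KO at 10 weeks and higher at 4 weeks.

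The same contrast at 10 weeks, made on 2 other arrays, gave a different set of values. There 169 of 16453 genes (1.03%) were higher in Mkx-KO by 2-fold or more and 228 (1.39%) at least 2-fold lower, so the excess of lower genes at 4 weeks had no counterpart of that size. Skeletal muscle genes had a median of -1.15 at 4 weeks and 0.35 at 10 weeks. Mature olfactory neuron genes had -1.49 over 9 genes and -0.17 over 20, and odorant carriers -5.04 over 10 and 0.38 over 22. Clock genes had -0.40 and 0.00. The median at each age covers the genes measured at that age, so the gene sets differ. Of the 22 carriers at 10 weeks, 7 were at least 2-fold lower and 4 at least 2-fold higher, against 1.39% and 1.03% of all genes. Medians of the ligament lists lay between -0.17 and 0.17 at 10 weeks. Differences between the ages in these contrasts were not tested.

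**Figure D5:**
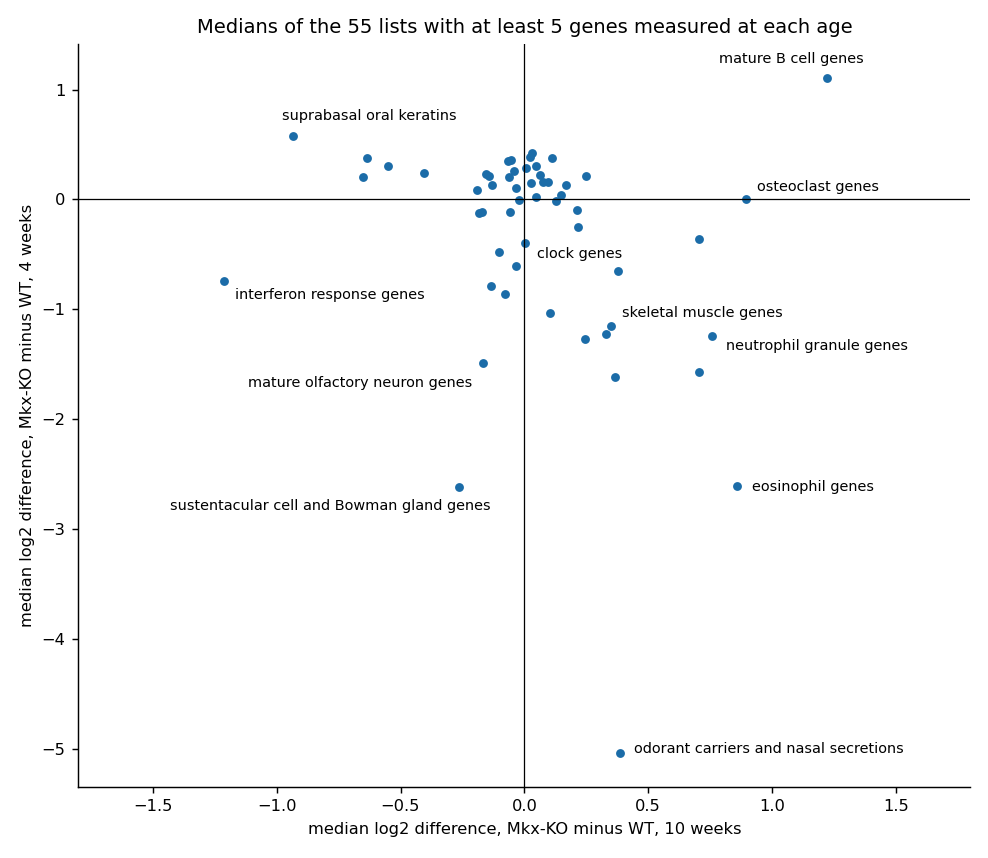
Median difference between Mkx-KO and WT (log2) at 10 weeks (horizontal axis) and at 4 weeks (vertical axis) for the 55 lists with at least 5 genes measured at each age. Odorant carriers, eosinophil genes and sustentacular cell genes lie lowest, mature B cell genes lie above 0 at both ages, interferon response genes lie below 0 at both, and suprabasal keratins have opposite signs.

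On the higher side, the named genes farthest apart among those measured on both arrays came from unlike groups. After Saa3 came Cox6b2, a subunit gene of cytochrome c oxidase best known from testis, at -0.38 in WT and 2.30 in the knockout. Cyp26a1 and Col26a1 followed, then Rln1, the gene of the hormone relaxin, at -2.66 and -0.85 (1.11 in difference after normexp correction), and Hhip. Sstr1, a somatostatin receptor gene, stood at -4.79 in WT against -3.02 in Mkx-KO (0.58 in difference after normexp correction) and differed by 1.81 at 10 weeks. Ephb4, a receptor of vein endothelium, differed by 1.66, or by 0.71 with its second probe, and Acta2 was the tenth. Timm21, a mitochondrial import gene, differed by 1.63, but its probe lay in a brighter patch.

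Some genes were well above background on 1 array only. On the WT array these were 702 genes (3.06% of all named genes), of which 384 were at least 2-fold lower in Mkx-KO by their bound. On the Mkx-KO array they were 266 genes (1.16%), with 22 at least 2-fold higher by their bound. The 4 widest of these, Wnt9b, Usp9y, Ccdc70 and Tmem247, lay in a brighter patch. Nppc, the gene of C-type natriuretic peptide, a growth signal of bone, lay in none and was at least 3.33-fold higher. Y-linked genes other than Usp9y were well above background on both arrays in 4 cases, with differences of 0.44 to 0.73.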

How the data were processed

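Total RNA of 4 mouse PDL samples, WT and Mkx-KO at 10 and 4 weeks, was hybridised to 1-colour Agilent arrays, 1 array per sample. The intensity used was the processed signal deposited in the scanner output of Agilent Feature Extraction 11.5.1.1, already background-corrected per the file headers. The log2 of this signal was taken for the 59305 non-control spots, less the array's 75th percentile, and spots of one probe were averaged. The authors' deposited value table held the same signals multiplied by 1 factor per array and was used as an alternative. Probes were named through RefSeq accessions, which matched 32989 of 56605 probes (58.3%), and the brightest probe represented a gene. No genome positions of probes are given. Differences carry no p-value. With 1 array per sample, the number of arrays limits precision, and replicate spots differed by a median SD of 0.04.

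A gene well above background on 1 array only was given a bound against the lowest level above background on the other array. The calculation was tested on simulated data. Of 820 genes in 58 lists, 808 were named on the array. Members and lists were chosen with earlier results of these data known, and 5 lists (clock, eosinophil, basophil, imprinted growth, airway gland and mucin) after values were seen in the present work. Genes named in the text are Mkx, markers of the PDL, members of the ligament, bone, tooth and epithelial lists, up to 5 members of each other list with the widest difference or bound, the 10 genes farthest apart in each direction with and without nasal and neural lists and receptors, and the 5 largest bounds in each direction. Olfactory receptors and clone-numbered genes were counted without names. Some genes that this rule names are not reported here. Any gene outside this rule is marked as chosen after its value was seen. Alternatives covered background correction, normalization, probe filters, probe averaging, thresholds and brighter patches. Normexp correction used the median spot signal and an offset of 50. Python 3.11.15, numpy 2.4.6, pandas 2.3.3, matplotlib 3.10.9, R 4.3.3 and limma 3.58.1 were used.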

Additional observations from a re-analysis of the deposited data

Results flagged for a closer look

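In all, 5 lists had medians of opposite sign at the 2 ages, each at least 0.5 in size at both, and none of these differences between ages was tested. Suprabasal oral keratins and cornified genes had a median of 0.58 at 4 weeks and -0.93 at 10 weeks. Neutrophil granule genes had -1.24 at 4 weeks and 0.76 at 10 weeks. B cell precursor genes had -1.57 and 0.70. Eosinophil genes had -2.60 and 0.86, and basophil genes, with only 2 genes measured, had -0.98 and 0.78. The eosinophil and basophil lists were written after their values were seen.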

How the results depend on the processing

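The medians of 5 lists, none farther from 0 than -0.12, changed sign under at least 1 alternative. Under quantile normalization osteoblast and osteocyte genes went from 0.04 to -0.04, osteoclast genes from 0.01 to -0.05, simple epithelial keratins from -0.12 to 0.06 and mineral inhibitors from -0.0017 to 0.0273. Endothelial genes went from -0.0103 to 0.009 when centred on the median. The other list and group medians kept their sign under every alternative run. With normexp background correction 27 genes were higher in Mkx-KO by 2-fold or more and 232 lower, with 201 genes at least 2-fold lower outside the nasal and neural lists. With no filter on dim probes these counts were 396, 1675 and 1475, and with genes above background on at least 1 array 149, 1083 and 967. A 1.5-fold threshold gave 440, 1101 and 1030, and a 3-fold threshold 10, 236 and 204. The nasal median was -0.759 with normexp correction, -2.99 with no filter and -3.125 with genes above background on at least 1 array. Under quantile normalization the share of lower genes among those 2-fold apart was 84.7%, against 88.0%. Of the named genes at least 2-fold apart, 35 were below 2-fold after normexp correction, among them Hhip and Cyp26a1. This alternative changed the signal column, the correction and the offset together, and the cause was not tested. Its list medians included 0.60 for mature B cell genes, -0.44 for interferon response genes and -0.25 for adipocyte genes. No paired analysis was possible because each group holds 1 array. Signal over background limits what can be said of genes near the lowest level above background, -5.01 in WT and -5.17 in Mkx-KO.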

Other observations

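Imprinted growth genes, a list written after its values were seen, were higher in Mkx-KO in 11 of 12 cases at 4 weeks (against 57.4% of all genes). Of the 12, 2 were at least 2-fold higher (against 0.453% of all genes), and the median was 0.42. Dlk1, which encodes a membrane protein that restrains differentiation of fat and other cells, stood at -0.49 in WT against 1.08 in Mkx-KO. Mest read 1.17 and 2.19, a difference of 1.02 that became 0.94 after normexp correction and 0.93 after quantile normalization. The noncoding gene Meg3 differed by 0.62, or by 0.13 as the mean of its 4 probes, and H19, named after its value was seen, by 0.42. Peg10 was the exception at -0.61. At 10 weeks the median of the list was 0.03.

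Of 23616 probes with no gene name, 10011 were measured on both 4-week arrays, and 165 (1.65%) were at least 2-fold lower and 37 (0.37%) at least 2-fold higher, with a median of 0.02.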
